A study of Mus musculus with 7 samples.

Results

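The 10 genes described here encode lysosomal proteins. They are 7 cathepsins (*Ctsa*, *Ctsb*, *Ctsd*, *Ctsh*, *Ctsl*, *Ctss* and *Ctsz*) and 3 proteins of the lysosomal membrane (*Lamp1*, *Lamp2* and *Cd63*). They were taken as a list of gene symbols, by a rule that uses no measured value but was set with earlier results of these data known, from the 25033 symbols in the count files. All 10 were listed, and all 10 passed the filter on low counts together with 11265 genes in total. Between cells of wild type mice and of mice lacking *HRP-2*, none of them differed by more than the spread between mice, and each gene's values overlapped between the genotypes.

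RNA came from lin- cells of the bone marrow, that is, from marrow depleted of cells with markers of mature lineages. The groups were 3 wild type mice (Hrp2+/+, labelled WT) and 4 knockout mice (Hrp2-/-, labelled KO) aged 6 to 8 weeks. Both were on a C57BL/6N background, and the knockout allele, tm1b of Hdgfrp2, is carried in every tissue. The input of each 3′ end library was 500 ng of RNA, and oligo(dT) priming yielded 1 fragment per transcript. Values are given as CPM, reads scaled to a common total of reads on genes after TMM scaling, which evens out differences in composition between libraries. Levels are compared between mice and not between genes.

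Lysosomes are acidic compartments in which proteins, lipids and sugars taken up or discarded by the cell are broken down. Cathepsins are the proteases of this compartment. They are made as inactive precursors, sorted to it mostly through mannose 6-phosphate tags, and activated at low pH. LAMP-1, LAMP-2 and CD63 are abundant glycoproteins of its limiting membrane or internal vesicles. In bone marrow, lysosomal genes are expressed across progenitors and at high levels in monocytes and macrophages, and granules of neutrophils, basophils and mast cells are related organelles.

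Many lysosomal genes carry in their promoters the CLEAR element, the binding sequence of the transcription factor TFEB, whose core is the E-box CACGTG. RefSeq promoter windows on GRCm38.p6, from 250 bases before to 50 bases after the transcription start, were at hand for 8 of the 10 genes (all but *Ctsb* and *Ctsh*), in 9 windows. The E-box, which reads the same on both strands, was found in windows of 4 genes: *Ctsa*, *Ctsd*, *Ctsl* and *Lamp1*. Over all genes with a window, 8.09% held it. The full CLEAR consensus, here the E-box preceded by GT and followed by AC, was in none of the 9 windows and in windows of 0.37% of all genes. The stretches holding an E-box are shown because they are what these 4 promoters have in common and the choice of the genes did not use it. Distances are from the RefSeq start of the window, which for *Ctsa*, *Ctsd* and *Ctsl* lies inside the gene span that GENCODE M21 gives. *Ctsa* has 2 windows, and the stretch shown is from the one whose start is farther downstream. Each is printed 5′ to 3′ on the strand of the gene, with the E-box in capitals.
*Lamp1*, chr8:13159090-13159161, plus strand: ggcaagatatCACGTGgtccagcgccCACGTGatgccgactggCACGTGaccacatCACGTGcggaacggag
*Ctsa*, chr2:164833751-164833793, plus strand: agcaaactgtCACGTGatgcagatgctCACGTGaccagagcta
*Ctsd*, chr7:142387910-142387935, minus strand: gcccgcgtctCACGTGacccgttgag
*Ctsd*, chr7:142388057-142388077, minus strand: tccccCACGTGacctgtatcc
*Ctsl*, chr13:64370741-64370766, minus strand: cgttagaagcCACGTGctgatctaaa
The *Lamp1* stretch is 72 bases long and holds 4 copies, which begin 61, 45, 28 and 15 bases before the start. In *Ctsa* 1 copy begins 12 bases before the start and the other at base 6 of the transcript. In *Ctsd* the copies begin 245 and 98 bases before the start, and the single copy in *Ctsl* begins 236 bases before it. A match describes the letters of the window and not the binding of any factor.

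Wild type libraries held 3525665 to 4490287 reads on genes, and knockout libraries 4355974 to 5605158. The ribosomal RNA precursor *Rn45s* took from 4.94% to 20.6% of these reads. *Hdgfl2*, the symbol under which the files list the gene of HRP-2, checks the labels. Its level was 49.9, 43.6 and 44.5 CPM in the wild type mice and 2.52, 0.622, 1.49 and 0.497 CPM in the knockout mice. The edgeR quasi-likelihood test gave it a log2 fold change of −5.09 with a standard error of 0.34 and an adjusted p of 1.38e-07. Summed over 10 progenitor markers such as *Kit* and *Cd34* the level was between 1463.6 and 1675.8 CPM, with overlap between genotypes. Of the 9 tested, 7 had a negative log2 fold change, with a median of −0.21, and none an unadjusted p under 0.05 by edgeR. Reads of maturing neutrophils were abundant, with 12 markers summing to between 8016.9 and 25278.0 CPM. Knockout replicate 3 had the Y-linked *Ddx3y* at 104.2 CPM and *Xist* at 0.559 CPM. In the other mice *Xist* was at 228.5 CPM or more, and *Ddx3y* was at 0.775 CPM in knockout replicate 1 and had no reads in the rest. The labels give no sex. Bulk RNA cannot tell fewer cells of a type from less RNA per cell. The labels do not say whether mice were littermates or processed on different days.

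The 2 lysosome-associated membrane proteins come first. LAMP-1 and LAMP-2 line the inner face of the lysosomal membrane with their sugar chains, and LAMP-2 also serves in chaperone-mediated autophagy. *Lamp1* (chromosome 8 of GRCm38, 13159161 to 13175338) had the smallest p-value of the 10 genes. Its level was 619.3, 665.2 and 550.2 CPM in wild type replicates 1 to 3 and 687.3, 691.1, 776.9 and 661.3 CPM in knockout replicates 1 to 4. Knockout replicate 4 lay below wild type replicate 2, and the other 3 knockout mice lay above every wild type mouse. The log2 fold change was 0.20 (standard error 0.13, 95% interval −0.06 to 0.47). The quasi-likelihood test of edgeR gave an unadjusted p of 0.126 and, over all genes, an adjusted p of 0.999. An exact permutation test, two-sided and on log2(CPM + 1), was run over the 35 splits of 7 mice and gave p = 0.0857, where 0.0286 is the smallest that this design allows. In knockout replicate 3, the highest of the 7 mice for *Lamp1*, the 12 neutrophil markers summed to 25278.0 CPM, against 15972.9 CPM or less elsewhere. Without this mouse the log2 fold change was 0.15, and the part of the neutrophil markers in it was not tested.

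*Lamp2* (chromosome X, 38401357 to 38456454) was at 223.2, 278.0 and 204.6 CPM in the wild type and 223.9, 243.1, 219.7 and 212.2 CPM in the knockout mice. The 4 knockout values lay inside the wild type range. The log2 fold change was −0.07 (standard error 0.14, 95% interval −0.35 to 0.22). *Lamp2* is X-linked, and knockout replicate 3, the mouse with *Ddx3y* at 104.2 CPM, was at 219.7 CPM; the part of sex in the level of *Lamp2* was not tested. Counts were made per symbol, so the splice forms of *Lamp2* were not told apart.

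CD63 is a tetraspanin of late endosomes, lysosomes and the granules of basophils and mast cells, and is carried on exosomes. *Cd63* (chromosome 10, 128900989 to 128912822) was at 813.6, 590.3 and 774.4 CPM in the wild type and 709.4, 711.0, 865.3 and 657.1 CPM in the knockout mice. Wild type replicate 2 was the lowest and knockout replicate 3 the highest of the 7, with the remaining mice between them. For *Cd63* the log2 fold change was 0.02 (standard error 0.14, 95% interval −0.28 to 0.32). Of 12 marker genes of basophils, mast cells and eosinophils, 11 were tested, and all 11 had a negative log2 fold change, with a median of −0.35. By edgeR 4 of the 11 had an unadjusted p under 0.05, or 36.4% against 3.63% of all genes (2.07% lower in the knockout). Their summed level was 2639.9 to 2783.8 CPM in the wild type and 1840.9 to 2444.3 CPM in the knockout mice, without overlap, while *Cd63* overlapped. No gene of that list had an adjusted p under 0.25 by edgeR's quasi-likelihood test. *Slc18a2* did by DESeq2 (0.0931), by the likelihood ratio test (0.143) and without a filter on low counts (0.079), and *Prg3* by the last 2 of these (0.243 and 0.115). A processed pseudogene of *Cd63* is annotated in GENCODE M21, and its symbol is not in the files, so reads that the gene and this copy share are uncertain.

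**Figure D1:**
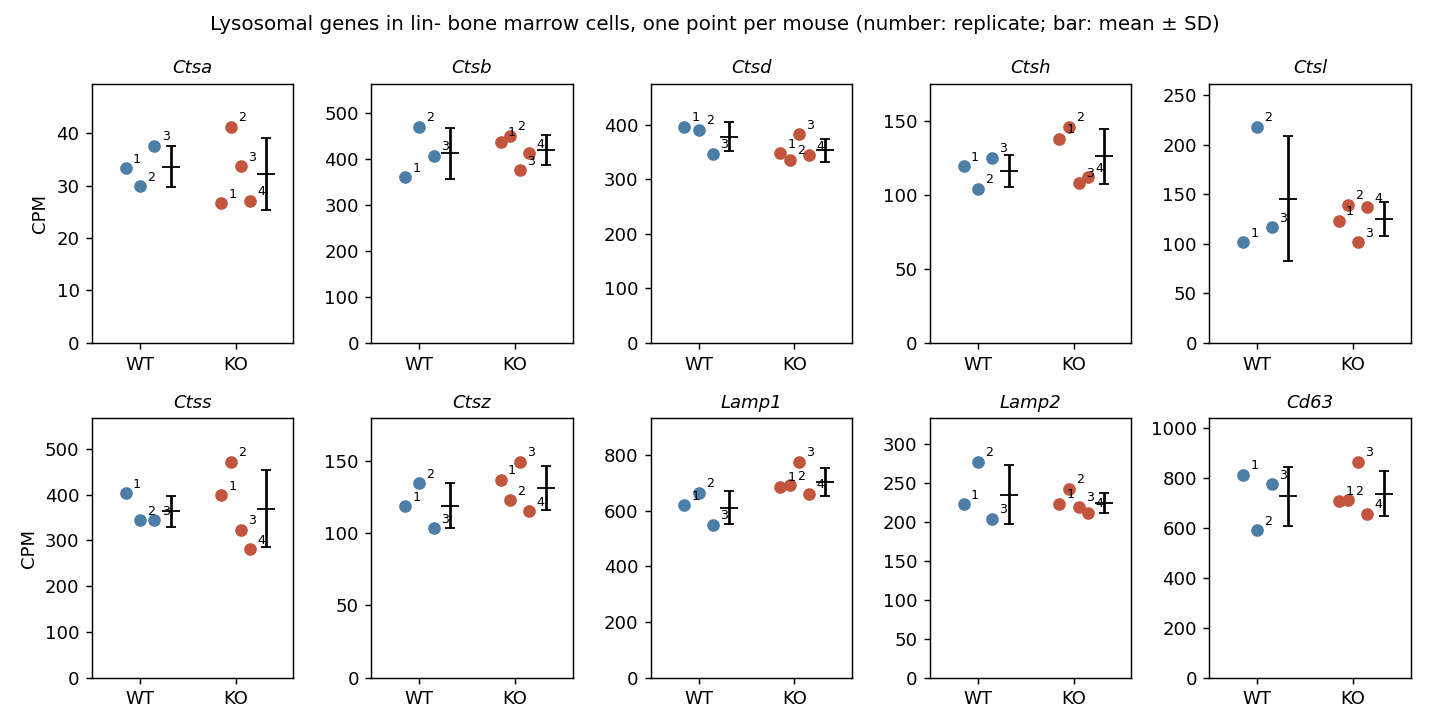
CPM of the 10 genes on linear axes that start at 0, one point per mouse with its replicate number, wild type (WT, blue) and knockout (KO, red), and the mean ± SD beside each group (n = 3 and n = 4). The genotypes overlap for all 10 genes, and wild type replicate 2 stands apart for *Ctsl* at 218.2 CPM.

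Among the proteases, 5 are cysteine cathepsins of the papain family. Together they reached 1157.1 ± 99.1 CPM (SD, n = 3) in the wild type mice and 1170.5 ± 135.2 CPM (SD, n = 4) in the knockouts. Cathepsin B, which cuts inside chains and also removes dipeptides from their ends, is encoded by *Ctsb* (chromosome 14, 63122462 to 63145923). It was at 360.0, 469.9 and 406.8 CPM in the wild type and 437.2, 450.4, 375.5 and 412.8 CPM in the knockout mice. All knockout values lay within the wild type range, with a log2 fold change of 0.02 (standard error 0.13, 95% interval −0.25 to 0.30).

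Cathepsin L is a strong endopeptidase, and *Ctsl* (chromosome 13, 64359337 to 64370890) had the widest spread of the 10 genes. Its level was 101.5, 218.2 and 117.1 CPM in wild type replicates 1 to 3, and 123.3, 139.5, 101.9 and 136.9 CPM in the knockout mice. Wild type replicate 2 had 781 reads, and the other 6 mice had from 442 to 673 reads. The coefficient of variation was 43.5% in the wild type and 13.7% in the knockout mice, where counting alone gives 4.19%. With all mice the log2 fold change was −0.21 (standard error 0.23, 95% interval −0.71 to 0.28), and without wild type replicate 2 it was 0.20 (standard error 0.16), so its sign rested on 1 mouse. In that library *Rn45s* took 20.6% of the reads on genes and 12 markers of dendritic cells summed to 2130.1 CPM, while the other mice had 1545.6 to 1855.4 CPM. In knockout replicate 4 *Rn45s* took 18.6% and *Ctsl* was at 136.9 CPM, and the part of either measure in the *Ctsl* value was not tested.

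Cathepsin S processes the invariant chain of MHC class II molecules in antigen-presenting cells. *Ctss* (chromosome 3, 95526786 to 95556403) was at 402.4, 344.2 and 344.5 CPM in the wild type and 398.2, 472.0, 323.3 and 281.1 CPM in the knockout mice. The knockout mice held both the highest and the lowest value, with a coefficient of variation of 22.8% against 9.22% in the wild type. Knockout over wild type, the log2 fold change was 0.02 (standard error 0.16, 95% interval −0.32 to 0.36). The 12 dendritic cell markers, which include genes of MHC class II, had a median log2 fold change of −0.03.

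Cathepsin H is an aminopeptidase and cathepsin Z a carboxypeptidase. *Ctsh* (chromosome 9, 90054152 to 90076089) was at 119.7, 104.5 and 125.4 CPM in the wild type and 138.2, 146.3, 108.6 and 112.3 CPM in the knockout mice. Knockout replicates 1 and 2 lay above the wild type range and the other knockout mice inside it. Its log2 fold change was 0.12 (standard error 0.15, 95% interval −0.19 to 0.43). *Ctsz* (chromosome 2, 174427493 to 174439039) was at 118.6, 134.7 and 103.6 CPM in the wild type and 136.9, 122.7, 149.5 and 115.1 CPM in the knockout mice. Again 2 knockout mice, replicates 1 and 3, lay above the wild type range. Its log2 fold change was 0.14 (standard error 0.15, 95% interval −0.16 to 0.45).

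The remaining cathepsins are not cysteine proteases. Cathepsin D is the main aspartic protease of lysosomes. *Ctsd* (chromosome 7, 142375911 to 142388038) had the narrowest spread of the 10 genes, 396.5, 391.4 and 347.4 CPM in the wild type and 348.4, 336.4, 383.5 and 344.4 CPM in the knockout mice. Its highest mouse was 1.18 times its lowest. The log2 fold change was −0.10 (standard error 0.12, 95% interval −0.36 to 0.16), and 2 knockout mice lay below the lowest wild type mouse. Cathepsin A is a serine carboxypeptidase that also protects the sialidase NEU1 and a galactosidase in a complex. *Ctsa* (chromosome 2, 164832873 to 164841032) was at 33.3, 29.9 and 37.6 CPM in the wild type and 26.6, 41.2, 33.7 and 27.1 CPM in the knockout mice. With 107 to 199 reads per mouse it was the least deeply counted of the 10 genes, and counting alone gives a coefficient of variation of 8.40%. For *Ctsa* the log2 fold change was −0.06 (standard error 0.21, 95% interval −0.49 to 0.37).

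Over the 10 genes, 6 had a positive and 4 a negative log2 fold change, with a median of 0.02. With 1 mouse left out this median ran from −0.045 (without knockout replicate 2) to 0.059 (without wild type replicate 2). The median of all genes tested was −0.0014, and 49.8% of them had a positive log2 fold change. By edgeR's quasi-likelihood test 0 of the 10 had an adjusted p under 0.25, the false discovery rate that the study used for these data, and 0.0178% of all genes tested did. At an unadjusted p under 0.05 the count was 0 of 10 as well, against 3.63% of all genes (1.56% higher and 2.07% lower in the knockout), and at an adjusted p under 0.25 it was also 0 of 10 by DESeq2, limma-voom and edgeR's likelihood ratio test and without a filter on low counts. These called 0.194%, 0.0266%, 0.257% and 0.25% of all genes that they gave an adjusted p, so a count of 0 among 10 genes is near the background. The genotypes were apart in CPM for 0 of 10, against 5.17% of all genes (2.37% higher and 2.8% lower in the knockout). The adjusted p was 0.999 for each of the 10. An adjusted p of this size does not show that the levels were equal, and the 95% intervals state what the data allow. They lay within 1 log2 unit of 0, a factor of 2, for all 10 genes and within 0.5 log2 units for 9, with *Ctsl* the exception. In fold terms, knockout over wild type, the intervals of the 10 genes reached from 0.613 for *Ctsl* to 1.39 for *Lamp1*.

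**Figure D2:**
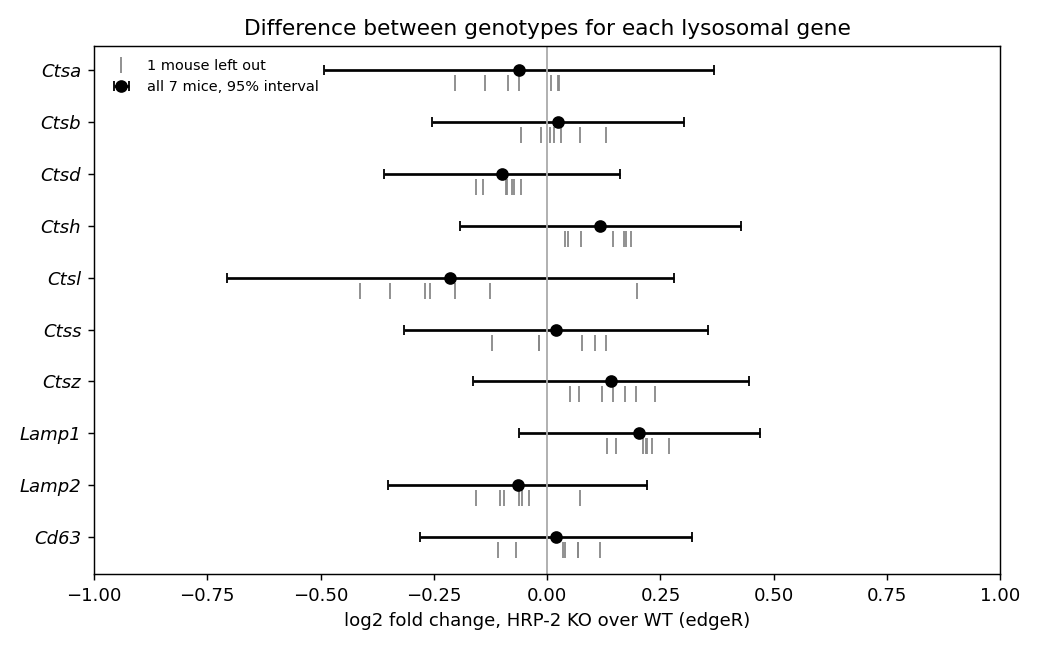
Log2 fold change of each gene, knockout over wild type, with its 95% interval from edgeR's quasi-likelihood test (points and bars), and the values with each mouse left out in turn (grey ticks). Every interval crosses 0, from −0.71 to 0.28 for *Ctsl* and from −0.06 to 0.47 for *Lamp1*, and the *Ctsl* tick at 0.20 is the fit without wild type replicate 2.

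The coefficient of variation between mice was above that from counting alone for each gene in both genotypes. For *Ctsa* in the wild type it was 11.5% (n = 3) against 8.40%, and whether the values exceed counting error was not tested. Counting alone gives coefficients of variation from 1.78% for *Cd63* to 8.40% for *Ctsa*, and *Cd63* varied by 16.4% in the wild type and 12.2% in the knockout mice. Different mice led for different genes. Wild type replicate 2 was the highest of the 7 for *Ctsb*, *Ctsl* and *Lamp2* and the lowest for *Ctsh* and *Cd63*. Knockout replicate 2 was the highest for *Ctsa*, *Ctsh* and *Ctss* and the lowest for *Ctsd*. Knockout replicate 3 was the highest for *Ctsz*, *Lamp1* and *Cd63*, and wild type replicate 3 was the lowest for *Ctsz*, *Lamp1* and *Lamp2*. The 10 genes therefore did not rank the mice alike. Summed over the 10 genes the level was 3188.3, 3226.4 and 3011.7 CPM in the wild type mice. In the knockout mice it was 3229.3, 3353.9, 3338.0 and 2960.3 CPM. The sums overlapped, with 3142.1 ± 114.5 CPM (SD, n = 3) and 3220.4 ± 182.0 CPM (SD, n = 4).

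Ratios within a mouse do not depend on the scaling of its library. Of the 45 ratios between 2 of the 10 genes, 2 did not overlap between the genotypes, or 4.44%, against 4.87% of all pairs among 6658 genes at a mean of 20 CPM or more. Both involve *Lamp1*. The ratio of *Lamp1* to *Lamp2* was 2.77, 2.39 and 2.69 in the wild type and 3.07, 2.84, 3.54 and 3.12 in the knockout mice. That of *Ctsd* to *Lamp1* was 0.640, 0.588 and 0.632 in the wild type and 0.507, 0.487, 0.494 and 0.521 in the knockout mice. These ratios were picked after all 45 had been seen, and their share is close to that of all pairs.

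Markers of cells rich in lysosomes were summed in each mouse. Of 13 macrophage markers 11 were tested, and 10 of them had a negative log2 fold change, with a median of −0.63. By edgeR 8 of the 11 had an unadjusted p under 0.05, or 72.7% against 3.63% of all genes. Their summed level was 389.1 to 451.8 CPM in the wild type and 278.0 to 320.5 CPM in the knockout mice, without overlap. The complement gene *C1qc*, the macrophage marker with the smallest p-value, was at 34.3 ± 2.56 CPM (SD, n = 3) and 17.2 ± 1.12 CPM (SD, n = 4), and edgeR gave it an adjusted p of 0.322. The 9 monocyte markers had a median log2 fold change of 0.20, and their sums were 3779.5 to 3851.4 CPM in the wild type and 4230.7 to 4949.5 CPM in the knockout mice, again without overlap. Of these 9 markers 4, or 44.4%, had an unadjusted p under 0.05 by edgeR. Knockout replicate 2, with the highest monocyte sum, was also the highest for *Ctsa*, *Ctsh* and *Ctss*. All 12 neutrophil markers had a positive log2 fold change, with a median of 0.72, overlapping sums and none at an unadjusted p under 0.05. No gene of these 3 lists had an adjusted p under 0.25 by edgeR's quasi-likelihood test, and calls differed between tools. The adjusted p of *C1qc* was 0.0113 by DESeq2, 0.0106 by edgeR's likelihood ratio test and 0.0251 without a filter on low counts, and that of the monocyte marker *Fn1* was 0.0725, 0.175 and 5.14e-06. *C1qa* also passed by the likelihood ratio test (0.243), and *Klf4* (0.0045) and *Ly6g* (0.0692) without the filter. The part of these cell types in the levels of the 10 genes was not tested.

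**Figure D3:**
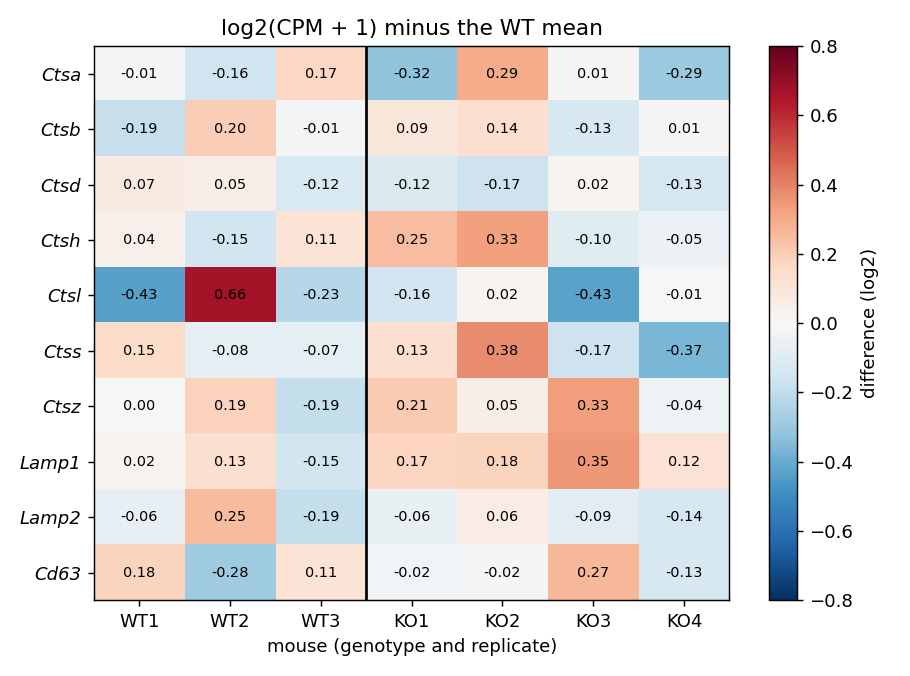
Difference of log2(CPM + 1) from the wild type mean for each of the 10 genes (rows) in each mouse (columns, wild type left of the line), red above and blue below. The value farthest from 0 is *Ctsl* in wild type replicate 2, at 0.66, and *Lamp1* is above 0 in all 4 knockout mice, from 0.12 to 0.35.

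The rest of the lysosomal pathway was followed in 8 lists of 151 genes, of which 131 were tested. Of these, 65 had a positive and 66 a negative log2 fold change, with a median of −0.01. By edgeR's quasi-likelihood test 0 of the 131 had an adjusted p under 0.25, against 0.0178% of all genes. The count was also 0 by limma-voom and, over 130 of them, by DESeq2, and it was 1, *Slc17a5*, by edgeR's likelihood ratio test and without a filter on low counts. By the quasi-likelihood test 5 had an unadjusted p under 0.05, or 3.82% against 3.63% of all genes tested. Genotypes were apart in CPM for 6 of them, or 4.58% against 5.17% of all genes.

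Among other cathepsins 7 of 15 were tested, with 2 positive and 5 negative log2 fold changes. The 8 not tested had no reads in any mouse. The median was −0.31, and the smallest p-values belonged to *Ctsw*, a cathepsin of cytotoxic lymphocytes, with −0.35 (standard error 0.20), and *Ctsc*, which activates granule serine proteases, with 0.23 (standard error 0.17). *Ctsg*, the serine protease of neutrophil primary granules, was at 954.7 ± 92.0 CPM (SD, n = 3) in the wild type and 887.9 ± 148.4 CPM (SD, n = 4) in the knockout mice. Cystatins and stefins inhibit cysteine cathepsins. Of the 10 listed, 8 were in the files and 3 were tested, with log2 fold changes of 0.06 for *Cst3*, 0.05 for *Cst7* and 0.04 for *Cstb*. *Cst3* stood at 951.9 ± 108.8 CPM (SD, n = 3) and 995.1 ± 63.7 CPM (SD, n = 4), with overlap. The stefin A genes are near-identical copies, and their few reads are uncertain.

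Of 26 other proteins of the lysosomal membrane 24 were tested, 15 with a positive and 9 with a negative log2 fold change and a median of 0.03. The smallest p-value of all 8 lists was that of *Slc17a5*, which encodes sialin, the exporter of sialic acid from lysosomes. Its level was 16.9, 11.7 and 7.95 CPM in the wild type and 5.04, 6.22, 2.61 and 5.22 CPM in the knockout mice, without overlap. The log2 fold change was −1.36 (standard error 0.38, with edgeR's unadjusted p at 0.00216 and its adjusted p at 0.812). *Cln3*, whose loss causes a juvenile form of lysosomal storage disease, was at 23.9, 22.6 and 15.9 CPM in the wild type and 34.1, 28.2, 36.7 and 25.1 CPM in the knockout mice. All 4 knockout mice lay above the wild type, and the log2 fold change was 0.58 (standard error 0.22, unadjusted p = 0.0183 and adjusted p = 0.999 from the same edgeR test). Neither gene passed the threshold over all genes in this test, and *Slc17a5* did by edgeR's likelihood ratio test (adjusted p = 0.243) and without a filter on low counts (0.207).

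Other soluble lysosomal enzymes and their activators numbered 46, of which 45 were tested. Of these, 18 had a positive and 27 a negative log2 fold change, with a median of −0.03. The smallest p-values were those of *Neu1*, the sialidase held in complex with cathepsin A, with 0.30 (standard error 0.16), and of the sulfatase gene *Arsa*, with −0.48 (standard error 0.30). *Neu1* was at 85.2 ± 8.31 CPM (SD, n = 3) in the wild type and 105.0 ± 16.7 CPM (SD, n = 4) in the knockout mice, with overlap. Genes that sort proteins to lysosomes had a median of 0.14 over 15 genes, of which 9 were positive. They included *Gnptab*, which builds the mannose 6-phosphate tag, with 0.20 (standard error 0.15), and *Nagpa*, which uncovers it, with 0.25 (standard error 0.18). With the replicate number as a block this median was 0.02, and without knockout replicate 4 it was −0.01.

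The proton pump that acidifies lysosomes, the V-ATPase, was represented by 16 tested subunits, 12 with a positive and 4 with a negative log2 fold change and a median of 0.05. *Atp6ap1*, an accessory subunit, was at 168.5, 153.4 and 178.9 CPM in the wild type and 165.8, 185.1, 272.3 and 246.0 CPM in the knockout mice. Knockout replicate 1 lay inside the wild type range and the others above it (log2 fold change 0.38, standard error 0.16, with edgeR's unadjusted p at 0.0326 and its adjusted p at 0.999). *Atp6v1b2*, a subunit of the part that splits ATP, stood at 0.25 on the same scale (standard error 0.15). Among regulators 7 genes were tested, with a median of −0.06, which was 0.01 without wild type replicate 3 and −0.14 without wild type replicate 1. *Tfeb*, the factor that binds the CLEAR element, was at 21.6 ± 2.42 CPM (SD, n = 3) in the wild type and 17.9 ± 6.16 CPM (SD, n = 4) in the knockout mice. The smallest p-values of the list were those of its relative *Tfe3*, with 0.47 (standard error 0.27), and of *Flcn*, an upstream regulator of both, with −0.27 (standard error 0.19).

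CD63 belongs to the tetraspanins, and 14 other members of that family were tested. Of these, 4 had a positive and 10 a negative log2 fold change, with a median of −0.13, which was −0.23 with the replicate number as a block, −0.20 by limma-voom and −0.25 without knockout replicate 2. At an unadjusted p under 0.05 by edgeR there were 2 of 14, or 14.3% against 3.63% of all genes, and the genotypes were apart in CPM for 3, or 21.4% against 5.17%. Their summed level did not overlap, with 999.4 to 1073.9 CPM in the wild type and 823.9 to 963.7 CPM in the knockout mice. *Tspan13* was at 123.6, 165.4 and 161.1 CPM in the wild type and 106.2, 113.4, 85.4 and 122.5 CPM in the knockout mice, so that all knockout mice lay below the wild type. Its log2 fold change was −0.49 (standard error 0.15, unadjusted p = 0.00521 and adjusted p = 0.999 from edgeR's test). *Tspan32*, a tetraspanin of blood cells, had −0.55 (standard error 0.19, unadjusted p = 0.00935 from the same edgeR test), with overlap. *Cd63* itself had 0.02, and whether it differed from its relatives was not tested.

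**Figure D4:**
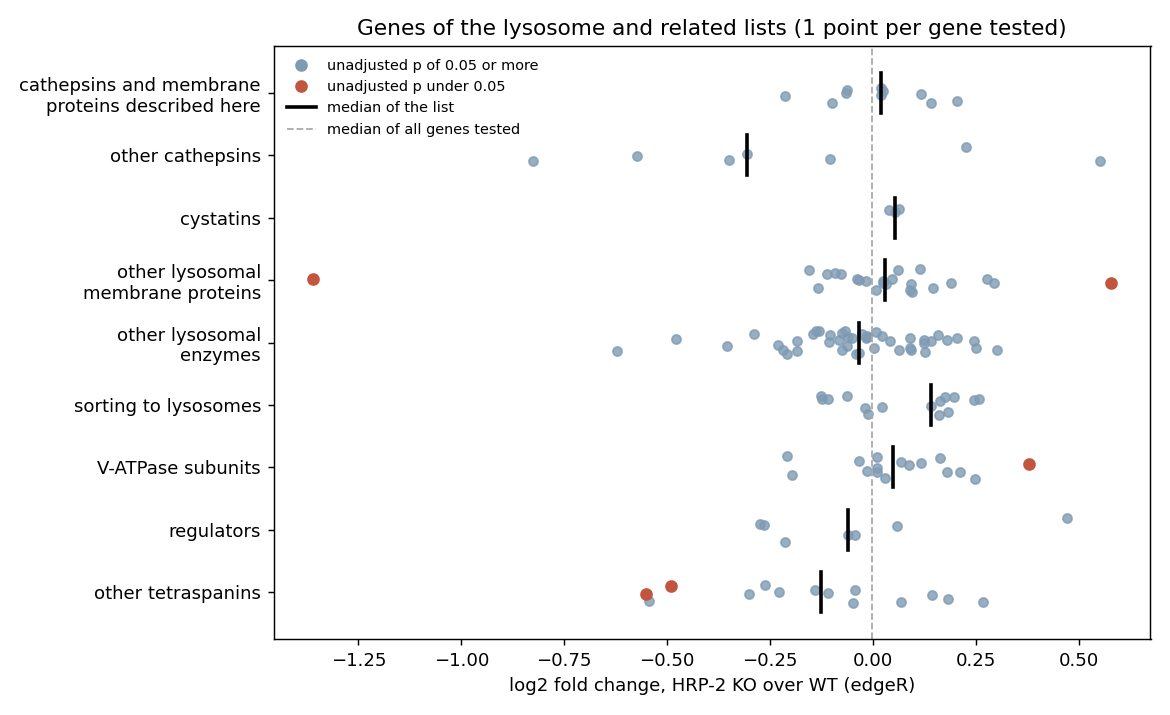
Log2 fold change, knockout over wild type, of each gene tested in the 10-gene group and the 8 related lists (1 point per gene), with the median of each list (black line) and of all genes tested (dashed line). The 10 genes lie between −0.21 and 0.20, and the 5 red points, at an unadjusted p under 0.05, are *Slc17a5*, *Cln3*, *Atp6ap1*, *Tspan13* and *Tspan32*.

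Some of the 10 genes share exons with a gene on the opposite strand, and the strand that was counted is not stated. The partners *Neurl2* and *Pltp* of *Ctsa*, *Fdft1* of *Ctsb* and *Grtp1* of *Lamp1* were at 11.1 CPM or less in both genotypes. The partner of *Ctsz*, *Nelfcd*, was at 28.6 CPM in the wild type and 27.0 CPM in the knockout mice. Reads of these pairs are uncertain, and how many were shared or dropped as ambiguous was not measured. *Ctsl* also shares exons with an antisense gene and a processed pseudogene, and *Ctsd* with another protein-coding gene model on the same strand, whose symbols are not in the files.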

How the data were processed

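Per the methods, the authors aligned 75 bp single reads of lin- cells to GRCm38 with STAR (version 2.4.2a), quantified genes on Ensembl annotation (version 84) and used DESeq2 for testing. As deposited, the counts are whole reads per gene symbol for 3 wild type and 4 knockout mice, not normalized. The 5 tally rows have the layout of a counting program other than STAR, so the counter and annotation behind the counts are uncertain, and these rows were left out. Reads on no gene were between 27.0% and 31.6% of a library, and ambiguous reads between 1.99% and 2.40%. Genes were filtered with filterByExpr and tested with edgeR 4.0.16 (TMM, robust quasi-likelihood, no block, Benjamini-Hochberg over all genes) in R 4.3.3, and the standard error is the log2 fold change over the square root of F. Single genes were compared by two-sided exact permutation. Alternatives used DESeq2 1.42.0, limma 3.58.1, other scaling and filters, and the omission of each mouse. The scripts were tested on simulated data. Gene positions come from GENCODE M21 (GRCm38). Within a genotype, no pair of libraries agreed within counting noise.

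The 10 genes are listed by symbol, with no threshold on a measured value, but they and the other lists were chosen with earlier results of these data known. Beside the 10 genes and *Hdgfl2*, the text names, from each of the 8 related lists, the genes past an adjusted p of 0.25 or else the 2 with the smallest p-value, 5 genes of like pattern, and *Rn45s* for its share of the reads. *Ctsg*, *Cstb*, *Tfeb*, *Kit*, *Cd34*, the other marker genes, *Xist*, *Ddx3y* and the genes overlapping a member were named after their values were seen. The labels call the samples biological replicates, and p-values measure the spread between these mice only.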

Additional observations from a re-analysis of the deposited data

Results flagged for a closer look

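In 50 genes and 9 summed groups named here, the highest or the lowest of the 4 knockout mice was compared with the other 3 by the ratio of its gap to the range, which by chance picks about 1 in 20. It picked 5. *Cst3*, the inhibitor of cysteine cathepsins, was at 1089.5 CPM in knockout replicate 2, against 950.0 to 971.8 CPM in the other knockout mice, and ran from 840.9 to 1058.3 CPM in the wild type mice. The 9 monocyte markers summed to 4949.5 CPM in knockout replicate 2, against 4230.7 to 4262.7 CPM in the other knockout mice, which were all above the wild type mice. *Ddx3y* was at 104.2 CPM in knockout replicate 3, against 0.775 CPM or less. *Nelfcd*, the partner of *Ctsz* on the opposite strand, was at 29.3 CPM in knockout replicate 4, against 25.9 to 26.5 CPM. *Pltp*, a partner of *Ctsa*, was at 0.186 CPM in knockout replicate 3, below the level of 3 reads, and had no reads in the others. None of the 10 lysosomal genes was picked.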

How the results depend on the processing

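In 170 refits of the 10 genes under 17 alternatives, none had an adjusted p under 0.25, and 156 kept the sign. By edgeR's test the sign turned when 1 mouse was left out for *Ctsa* (0.026 without wild type replicate 3, 0.024 without knockout replicate 1, 0.009 without knockout replicate 4), *Ctsb* (−0.058 without wild type replicate 1, −0.013 without knockout replicate 2), *Ctsl* (0.198), *Lamp2* (0.072) and *Cd63* (−0.109) without wild type replicate 2, *Cd63* without knockout replicate 3 (−0.069) and *Ctss* (−0.018 without wild type replicate 2 or 3, −0.017 and −0.122 without knockout replicate 1 or 2). *Ctss* was also at −0.004 by limma-voom. The ranges over mice left out were −0.204 to 0.026 for *Ctsa*, −0.058 to 0.129 for *Ctsb*, −0.412 to 0.198 for *Ctsl*, −0.122 to 0.129 for *Ctss*, −0.156 to 0.072 for *Lamp2* and −0.109 to 0.116 for *Cd63*. *Lamp1* ran from 0.133 to 0.269, *Ctsd* from −0.157 (without wild type replicate 3) to −0.057 (without wild type replicate 1), *Ctsh* from 0.039 (without knockout replicate 2) to 0.184 (without knockout replicate 3) and *Ctsz* from 0.051 (without wild type replicate 3) to 0.239 (without wild type replicate 2). From 4 to 7 of the 10 genes were positive.

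Over all genes, the 2 called at an adjusted p under 0.25 and under 0.05 became 21 and 6 by DESeq2, 29 and 6 by edgeR's likelihood ratio test, 41 and 19 without a filter, and 1 and 1 with at least 10 counts in every mouse. With mice left out they were 2 to 7 and 1 to 5, with 7 and 5 without wild type replicate 1 and 4 and 4 without knockout replicate 1. The median of the sorting genes was 0.023 with the replicate block and −0.010 to 0.096 with mice left out. With mice left out, that of the V-ATPase was 0.034 to 0.104, of the tetraspanins −0.247 to −0.104, of the regulators −0.143 to 0.012, of the enzymes −0.063 (without knockout replicate 2) to 0.021 (without wild type replicate 2), of other membrane proteins −0.016 (without knockout replicate 2) to 0.050 (without wild type replicate 2) and of the inhibitors 0.000 (without wild type replicate 3) to 0.153 (without wild type replicate 1). The cause was not tested.

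With the replicate number as a block 1 and 1 genes were called. Same-numbered mice are different animals, and the block changed no call among the 10 genes. The mean correlation of deviations was −0.257 for same-numbered wild type and knockout mice (−0.41 to −0.049). For mice of different numbers it was 0.0882.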

Other observations

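The mean of the 10 genes, centred on each gene's mean over the mice, ran from −0.11 in knockout replicate 4 to 0.12 in knockout replicate 2 on the log2 scale. Among 6648 other genes at a mean of 20 CPM or more, those with the profile most like it over the 7 mice were *Sec24a*, *Pam*, *Ifi203*, *Tmem39a* and *Gtf2e2*, with Pearson's r from 0.937 to 0.966. They are the top of a ranking over 7 points that share their libraries, and are given as a description with no test. Their own log2 fold changes lay between −0.02 and 0.06.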
